A study of Mus musculus with 8 samples.

Results

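The cell cycle genes described here were chosen by name, 48 in all, from the engines and brakes of cell division: cyclins, cyclin-dependent kinases (CDKs), CDK inhibitors, DNA replication factors and proteins of mitosis. Of these, 47 were measured by a probe set annotated to that gene alone, among 18193 genes on the array. Ccnb1, a mitotic cyclin, was not named by such a probe set in the annotation used, and its expression was not analysed here. Where a gene had several probe sets, the one that was brightest on average across the 8 arrays was read. The genes were held apart by role: 10 G1 cyclins, kinases and E2F factors, 14 S phase genes, 19 measured mitotic genes and 4 CDK inhibitors.

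The arrays held total RNA of the ductus arteriosus, the fetal shunt between pulmonary artery and aorta, or of the aorta, from untreated fetal mice on day 19 of gestation. All mice carry the strain label CD88 and are described as wild type. There were 4 ductus and 4 aorta arrays, and each array stands for vessel pieces pooled over up to 10 pups of a litter. Each array is therefore a mix of all the cells of the dissected piece, in which fewer cells of a type and less RNA per cell cannot be told apart. Smooth muscle markers were present in every array, with Acta2, the vascular actin, at 11.89 to 12.41 and the myosin heavy chain Myh11 at 10.02 to 11.46 on the log2 scale. Their mean also separated the vessels, at 9.86 to 10.40 in the aorta and 10.66 to 11.01 in the ductus. Of the 7, 3 (Myh11, Cnn1 and Mylk) were called higher in the ductus by limma. Ductus and aorta values did not overlap in 4 of the 7, and Myocd had a ductus minus aorta difference of -0.0062.

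A cell that divides first passes a decision point in G1. D-type cyclins with CDK4 or CDK6, then cyclin E with CDK2, phosphorylate the retinoblastoma protein, and E2F factors are freed to switch on the genes of DNA synthesis. CDK inhibitors such as p21, p27, p57 and p18 hold these kinases back. After replication, genes of G2 and mitosis are switched on together by complexes that read CHR and CCAAT elements in their promoters. In vessels before birth, smooth muscle cells still divide while they take on contractile properties.

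The promoters of 5 members are printed because the results below turn on these genes or because they carry the clearest elements of their class. They are the 250 bases before the annotated RefSeq start (build GRCm38.p6), read along the gene's own strand, with matches in capitals. Cdk6 (the G1 kinase that differed between the vessels) comes from chr5:3343643-3343892 on the plus strand, Cdkn1b (p27) from chr6:134920151-134920400 on the plus strand, and Mcm6 (a subunit of the replication helicase) from chr1:128359706-128359955 on the minus strand. Kif11 (a spindle motor) comes from chr19:37376132-37376381 on the plus strand and Top2a (topoisomerase II alpha) from chr11:99024190-99024439 on the minus strand.
Cdk6: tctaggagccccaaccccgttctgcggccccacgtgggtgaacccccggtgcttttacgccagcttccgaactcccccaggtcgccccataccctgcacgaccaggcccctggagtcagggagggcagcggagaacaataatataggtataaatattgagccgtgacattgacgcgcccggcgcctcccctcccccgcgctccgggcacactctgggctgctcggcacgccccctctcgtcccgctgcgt
Cdkn1b: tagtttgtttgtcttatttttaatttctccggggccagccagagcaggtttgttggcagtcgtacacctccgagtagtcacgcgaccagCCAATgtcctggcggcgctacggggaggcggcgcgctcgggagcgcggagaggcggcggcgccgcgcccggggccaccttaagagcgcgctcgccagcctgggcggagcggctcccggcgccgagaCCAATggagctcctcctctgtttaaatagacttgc
Mcm6: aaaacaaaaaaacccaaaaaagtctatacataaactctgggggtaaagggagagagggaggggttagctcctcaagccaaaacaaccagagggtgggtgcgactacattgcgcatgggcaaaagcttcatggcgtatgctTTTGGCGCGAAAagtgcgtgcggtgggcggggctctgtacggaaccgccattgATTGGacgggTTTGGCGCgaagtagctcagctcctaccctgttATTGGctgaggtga
Kif11: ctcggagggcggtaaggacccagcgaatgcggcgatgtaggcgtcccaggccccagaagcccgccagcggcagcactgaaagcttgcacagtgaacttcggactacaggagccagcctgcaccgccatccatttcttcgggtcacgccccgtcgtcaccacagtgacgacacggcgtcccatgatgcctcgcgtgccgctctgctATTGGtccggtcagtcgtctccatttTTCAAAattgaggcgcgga
Top2a: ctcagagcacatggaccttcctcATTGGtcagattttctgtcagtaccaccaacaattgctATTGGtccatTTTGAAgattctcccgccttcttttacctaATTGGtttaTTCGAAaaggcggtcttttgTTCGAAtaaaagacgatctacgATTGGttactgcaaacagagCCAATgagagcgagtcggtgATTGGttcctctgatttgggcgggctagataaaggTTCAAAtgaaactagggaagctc

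The letters searched, on both strands, were TTTCCCGC, TTTCGCGC, TTTGCCGC and TTTGGCGC for E2F, TTTGAA and TTCGAA for CHR, and CCAAT for the CCAAT box. Mcm6 held 3 E2F matches, the first 2 overlapping each other at 110 to 103 and 106 to 99 bases before the start and the last at 47 to 40 bases. Kif11 held a CHR match 19 to 14 bases before the start and a CCAAT box 45 to 41 bases before it. Top2a held 4 CHR matches and 6 CCAAT boxes. Cdkn1b had 2 CCAAT boxes and no other match, and the Cdk6 window had no match to any of these letters. That Cdk6 window precedes a start inside the gene, which is listed from 3341004 to 3531008 on chromosome 5. The bases before 3341004 were not searched, so the lack of matches covers this window only.

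The counts of matches by class are small, and no test compared the classes. Of 12 S phase genes with a listed promoter, 4 (33.3%) had an E2F match, namely Cdc6, Mcm5, Mcm6 and Mcm7, against 2.2% of 27025 genes. Among 16 mitotic genes, 1 (6.2%) had an E2F match, the mitotic kinase gene Cdk1, and 7 (43.8%) had a CHR match, as did 3 of 12 S phase genes (25.0%) and 19.6% of all genes. A CCAAT box stood in 14 mitotic (87.5%) and 9 S phase genes (75.0%), against 37.5% of all genes. CHR and CCAAT box together were found in 7 mitotic genes (43.8%), namely Bub1b, Ccnb2, Cdc20, Cdk1, Kif11, Mki67 and Top2a. They were also found together in 3 S phase genes (25.0%), in 8 of 35 other mitosis genes (22.9%) and in 7.9% of all genes. The other replication genes had E2F matches in 6 of 32 (18.8%), and the other mitosis genes had CHR matches in 11 of 35 (31.4%). Where a gene had several listed starts, a match at any of them counted. Promoters were listed for 38 of the 48 genes. Ccnb1, whose expression was not analysed, is among them and counts among the 16 mitotic genes here. A match is a description of the letters, not of binding.

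**Figure D1:**
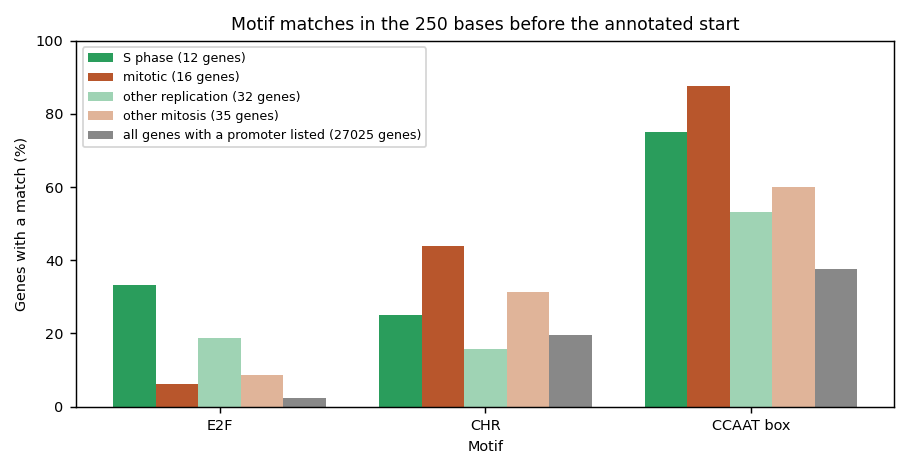
Share of genes (percent) whose 250 bases before the annotated start hold a match to the E2F, CHR or CCAAT box letters, for S phase and mitotic members, for other replication and mitosis genes, and for all 27025 genes with a listed promoter. The E2F bar is tallest for S phase members (33.3%) and the CHR bar for mitotic members (43.8%).

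Levels below are log2 values, and arrays are always given in the order of replicates 1 to 4. Differences are ductus minus aorta on the log2 scale with the standard error of limma's moderated test, and p-values carry the Benjamini-Hochberg adjustment across the 18193 genes. Calls were made where that adjusted p was under 0.05. The median of an array was 4.36 to 4.42 and its first quartile 2.74 to 2.86, and the table used has no detection call.

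A single gene of the cell division machinery was called between the vessels, Cdk6, which was 1.85-fold lower in the ductus. That is 1 of 47 members (2.13%), where 3.86% of all genes were called: 0 members higher in the ductus, against 1.80% of all genes, and 1 higher in the aorta, against 2.06%. At an unadjusted p under 0.05, limma gave 4 members with a positive and 5 with a negative difference, 19.1% against 16.1% of all genes. The ductus and aorta values did not overlap in 5 members (10.6%), against 11.3% of all genes. In 4 of them the ductus was the higher tissue, against 5.23% of all genes, and in 1 the aorta, against 6.06%. These shares lie near those of all genes and single out no excess among the members. No member differed by log2 1 or more.

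**Figure D2:**
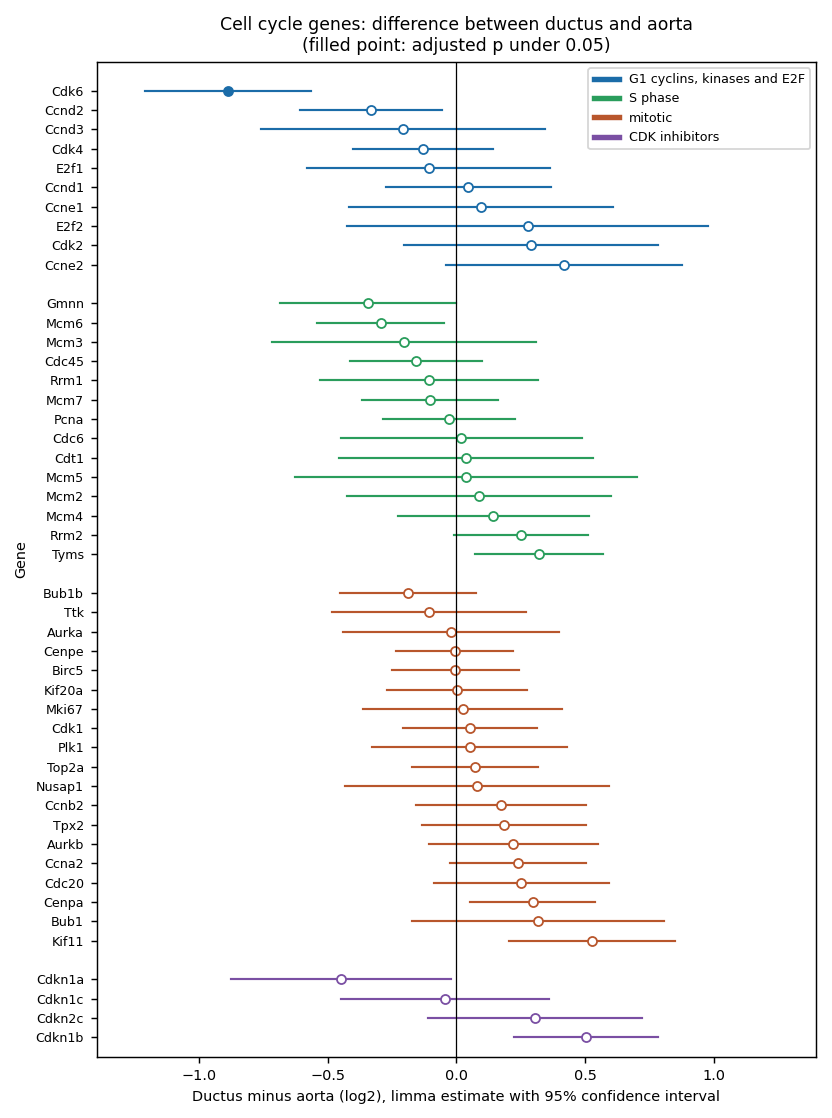
Ductus minus aorta difference (log2) of the 47 measured members with limma's 95% confidence interval, by role. Cdk6, at -0.89, is the filled point, while the other 46 are open because they were not called.

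The G1 engine was the class with the call. Cdk6 encodes a kinase partner of the D-type cyclins. It was at 7.70, 8.14, 8.08 and 8.10 in the aorta and 7.33, 6.91, 6.97 and 7.25 in the ductus. Every ductus array was below every aorta array, and aorta replicate 1 was the lowest of its tissue. The means were 8.0 ± 0.206 in the aorta and 7.11 ± 0.205 in the ductus (SD, n = 4 each), a difference of -0.89 ± 0.144 with a 95% confidence interval of -1.21 to -0.57 (limma adjusted p = 0.00871). A further Cdk6 probe set gave 7.0, 7.60, 7.55 and 7.26 in the aorta and 6.76, 6.59, 6.64 and 6.44 in the ductus, also without overlap. Its difference of -0.75 ± 0.152 passed as well when all 34945 probe sets were tested, a test added after seeing the data (limma adjusted p = 0.0298). The last Cdk6 probe set lay at 2.46 to 2.94, about the first quartile of the arrays, and differed by 0.029 ± 0.130.

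Averaged over its 3 probe sets, Cdk6 was still called with a difference of -0.54 (limma adjusted p = 0.0205). Leaving out any 1 array kept the call, with differences of -0.99 to -0.82 and limma adjusted p of 0.00565 to 0.0331. Endothelial markers moved in the same direction as Cdk6: all 6 had negative differences, 3 of them called, and their mean was 7.90 to 8.29 in the aorta and 7.36 to 7.49 in the ductus. All 7 mesothelial markers had negative differences too, 6 of them called, with means of 7.86 to 9.27 and 6.39 to 7.0. With the endothelial mean as a covariate, added after seeing the data, the Cdk6 difference was -0.99 ± 0.499 and did not pass (limma adjusted p = 0.748). That mean does not overlap between the tissues, so the covariate and the tissue can hardly be told apart in that fit.

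The D-type cyclins did not pass. Ccnd2, cyclin D2, was at 10.80, 11.05, 10.96 and 11.02 in the aorta and 10.49, 10.43, 10.76 and 10.81 in the ductus, with ductus replicate 4 just above aorta replicate 1. The difference was -0.33 ± 0.123 (limma adjusted p = 0.212). Of its 7 probe sets 6 had negative differences. The probe set with the largest interquartile range read 8.07, 8.53, 8.52 and 8.59 in the aorta and 7.61, 7.75, 7.84 and 7.88 in the ductus, without overlap. With that probe set Ccnd2 was called at -0.66 (limma adjusted p = 0.0352), and a further probe set read 0.29 ± 0.160 in the opposite direction, so the call depends on the probe set.

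Ccnd1, cyclin D1, stood at 7.81, 7.71, 7.95 and 7.47 in the aorta and 7.97, 7.90, 7.53 and 7.73 in the ductus, fully intermingled, and differed by 0.047 ± 0.142 (limma adjusted p = 0.917). For Ccnd3, cyclin D3, the aorta values were 8.24, 8.49, 8.10 and 9.22 and the ductus values 8.67, 8.03, 8.40 and 8.11, a difference of -0.21 ± 0.246 (limma adjusted p = 0.750). Its aorta replicate 4 and ductus replicate 1 were the highest of their tissues. Cdk4, the other partner of the D cyclins, had 9.57, 9.52, 9.35 and 9.36 in the aorta and 9.33, 9.58, 9.19 and 9.19 in the ductus. Its difference, -0.13 ± 0.121 (limma adjusted p = 0.681), has a 95% confidence interval of -0.40 to 0.14. Whether the effects on the 2 kinases differ was not tested.

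Of the cyclin E step, Ccne2 and Cdk2 had positive differences that did not pass. Ccne2, cyclin E2, read 5.90, 6.58, 6.74 and 6.53 in the aorta and 7.16, 6.58, 6.65 and 7.04 in the ductus (0.42 ± 0.205, limma adjusted p = 0.359). Its kinase Cdk2 read 6.24, 6.14, 6.78 and 5.71 in the aorta and 6.51, 6.82, 6.20 and 6.49 in the ductus (0.29 ± 0.220, limma adjusted p = 0.590). Both genes overlapped between the vessels, with aorta replicate 1 the lowest array for Ccne2 and aorta replicate 4 for Cdk2. E2f1, an activator of S phase genes, had 7.71, 7.36, 7.06 and 7.77 in the aorta and 7.79, 7.51, 7.15 and 7.02 in the ductus, a difference of -0.11 ± 0.210 (limma adjusted p = 0.860). The other 2 genes of the class, Ccne1 and E2f2, differed by 0.095 and 0.28. A further Ccne1 probe set differed by -0.10 ± 0.127. The median difference of the 10 genes was -0.030, against -0.032 over all genes.

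CDK inhibitors showed no call, against 3.86% of all genes. In 2 of the 4 the unadjusted p was under 0.05 (50%, against 16.1% of all genes), with differences in opposite directions. Cdkn1b encodes p27, the inhibitor of quiescent cells. It was at 9.31, 9.24, 9.30 and 9.29 in the aorta, a very tight group, and 9.98, 9.47, 9.90 and 9.79 in the ductus. All 4 ductus arrays lay above all aorta arrays, with ductus replicate 2 the nearest. The difference of 0.50 ± 0.124 did not pass (limma adjusted p = 0.0607). It passed without ductus replicate 2 (0.61, limma adjusted p = 0.0238), without the lowest 40% of genes (limma adjusted p = 0.0449), among genes with a mean above log2 6 (0.0355) and with a trended robust prior (0.0254). It did not pass at 0.05 under the other alternatives run, where the adjusted p reached 0.239 without aorta replicate 4 and ductus replicate 1 together. The mean over probe sets gave 0.28 (limma adjusted p = 0.233) and a plain equal-variance test an adjusted p of 0.108. The mean of the smooth muscle markers, as given above, was also higher on the ductus arrays, and the part of smooth muscle cells in this value was not tested. A second Cdkn1b probe set, at 8.76 to 9.54, overlapped and differed by 0.049 ± 0.199.

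Cdkn1a, p21, the inhibitor that p53 induces, was at 6.81, 7.28, 6.92 and 7.14 in the aorta and 6.57, 6.48, 7.09 and 6.21 in the ductus. Ductus replicate 3 lay among the aorta arrays and the other 3 below them. The difference was -0.45 ± 0.190 (limma adjusted p = 0.280), and both probe sets had the same direction. Cdkn1c, the imprinted inhibitor p57, read 7.43, 8.09, 7.90 and 7.83 in the aorta and 7.87, 7.46, 8.11 and 7.64 in the ductus, a difference of -0.045 ± 0.180 (limma adjusted p = 0.938) with the arrays intermingled. Cdkn2c, p18, which binds CDK4 and CDK6, had 5.37, 4.93, 5.64 and 5.06 in the aorta and 5.77, 5.74, 5.21 and 5.50 in the ductus (0.30 ± 0.185, limma adjusted p = 0.482). The 4 genes had a median of 0.13 with 2 values on either side of 0.

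**Figure D3:**
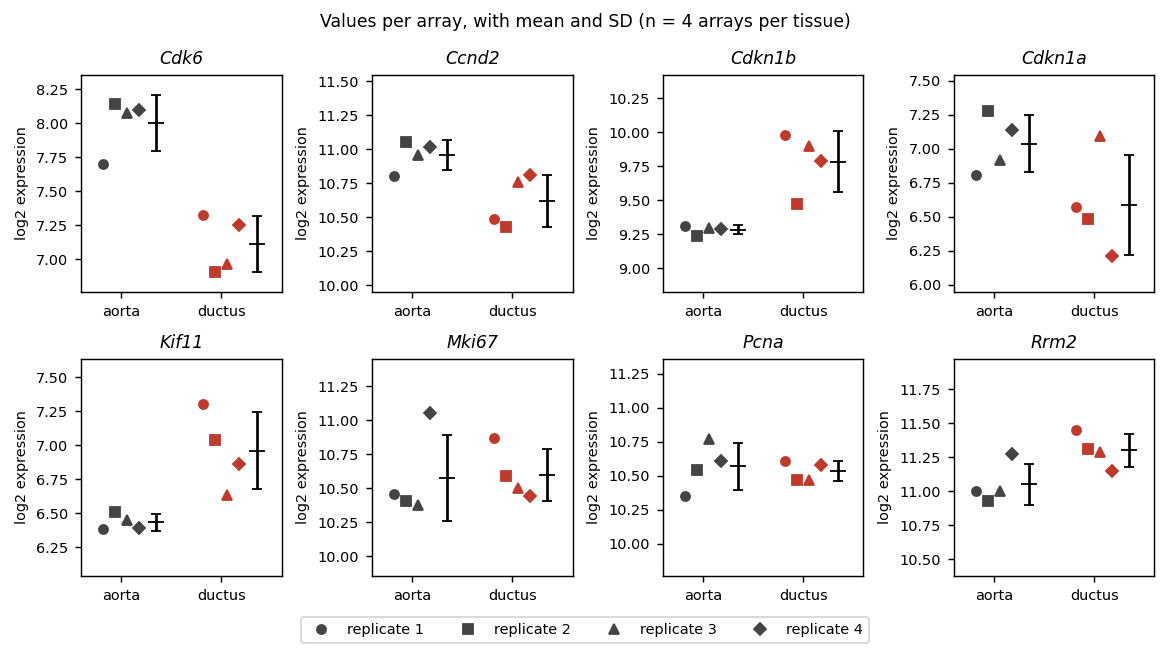
Log2 expression on each array for 8 members, with a symbol shape for each replicate number and mean ± SD beside each tissue (n = 4). Cdk6 is lower on every ductus array, Cdkn1b and Kif11 are higher on every ductus array without passing the test, and Mki67 overlaps.

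limma called 0 of the 14 S phase genes, against 3.86% of all genes, with 3 at an unadjusted p under 0.05 (21.4%, against 16.1%). The median difference was -0.0053, against -0.032 over all genes. Positive differences were found in 7 and negative in 7, where 44.0% of all genes had a positive one. This split moved with single arrays: positive differences numbered 3 without aorta replicate 1 (median -0.087), 4 without aorta replicate 2 (-0.033), ductus replicate 1 (-0.13) or ductus replicate 3 (-0.12), and 9 without aorta replicate 4 (0.10). With the mean over probe sets they numbered 4 (-0.051). Pcna, the sliding clamp of DNA polymerase, was at 10.35, 10.54, 10.77 and 10.61 in the aorta and 10.61, 10.47, 10.47 and 10.58 in the ductus. All its ductus arrays lay inside the aorta range. Its difference of -0.029 ± 0.114 had a 95% confidence interval of -0.28 to 0.23 (limma adjusted p = 0.937).

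The helicase that unwinds origins is built of Mcm2 to Mcm7. Mcm6 was at 9.26, 9.40, 9.48 and 9.56 in the aorta and 9.30, 9.07, 9.13 and 9.03 in the ductus, with ductus replicate 1 above aorta replicate 1 (-0.29 ± 0.110, limma adjusted p = 0.213). Only 1 of its 3 probe sets went this way. Mcm2 read 6.78, 6.99, 6.96 and 7.72 in the aorta and 7.55, 6.78, 7.35 and 7.11 in the ductus, highest on aorta replicate 4 and ductus replicate 1 (0.086 ± 0.229, limma adjusted p = 0.902). Mcm3, Mcm4, Mcm5 and Mcm7 had differences of -0.21, 0.14, 0.037 and -0.10, none called.

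Origin licensing is loaded by Cdc6 and Cdt1 and blocked by geminin. Gmnn, geminin, was at 7.94, 8.62, 8.23 and 8.04 in the aorta and 7.94, 7.90, 7.73 and 7.88 in the ductus, with its highest value on aorta replicate 2 (-0.35 ± 0.152, limma adjusted p = 0.305). Aorta replicate 1 equalled the highest ductus array. Cdc6 and Cdt1 differed by 0.018 and 0.037, and the helicase activator Cdc45 by -0.16.

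Enzymes that supply nucleotides did not pass either. Rrm2, the regulated subunit of ribonucleotide reductase, was at 11.00, 10.93, 11.00 and 11.27 in the aorta and 11.45, 11.31, 11.29 and 11.15 in the ductus, where aorta replicate 4 reached into the ductus range (0.25 ± 0.116, limma adjusted p = 0.331). Its partner Rrm1 differed by -0.11. Tyms, thymidylate synthase, read 3.95, 4.07, 4.25 and 4.13 in the aorta and 4.55, 4.50, 4.31 and 4.31 in the ductus, without overlap (0.32 ± 0.111, limma adjusted p = 0.180). These levels lie around the array medians, only 1 of 4 Tyms probe sets had a positive difference, and a further probe set annotated to more than 1 symbol was left out.

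Mitotic genes were also not called, with 0 of 19 by limma, against 3.86% of all genes. At an unadjusted p under 0.05 there were 2 (10.5%, against 16.1% of all genes). Positive differences were found in 14 of the 19 (73.7%), against 44.0% of all genes, with a median difference of 0.073. Among genes with a mean above log2 6 the share was 13 of 18 (72.2%), against 50.2% of all such genes. It was 11 of 19 (57.9%) without aorta replicate 1 and also without ductus replicate 1. The median was 0.028 without ductus replicate 1, 0.18 without aorta replicate 4, 0.13 without ductus replicate 3 and 0.14 without ductus replicate 4. Mki67, the proliferation marker Ki-67, was at 10.46, 10.41, 10.38 and 11.05 in the aorta and 10.87, 10.59, 10.50 and 10.44 in the ductus. Aorta replicate 4 was the highest of all 8 arrays, followed by ductus replicate 1. The difference was 0.025 ± 0.172 with a 95% confidence interval of -0.36 to 0.41 (limma adjusted p = 0.966), and its sign changed to -0.0074 when quantile normalization was applied again. That setting also left 12 of the 19 mitotic genes (63.2%) with a positive difference.

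Top2a, which untangles chromosomes and has the promoter richest in CHR and CCAAT matches above, read 9.29, 9.24, 9.33 and 9.51 in the aorta and 9.52, 9.46, 9.24 and 9.45 in the ductus (0.073 ± 0.109, limma adjusted p = 0.813). Cdk1, the kinase that drives entry into mitosis, had 8.56, 8.94, 8.87 and 8.87 in the aorta and 8.93, 8.80, 8.75 and 8.96 in the ductus (0.052 ± 0.116, limma adjusted p = 0.881). Ccna2, cyclin A2, its partner, was at 9.13, 9.07, 9.07 and 9.35 in the aorta and 9.54, 9.40, 9.18 and 9.46 in the ductus (0.24 ± 0.118, limma adjusted p = 0.363). In all 3 genes the arrays of the vessels overlapped.

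The widest mitotic difference was in a spindle gene. Kif11, the motor that pushes spindle poles apart, was at 6.38, 6.51, 6.45 and 6.39 in the aorta and 7.30, 7.04, 6.63 and 6.86 in the ductus. The 4 aorta arrays were tightly grouped below every ductus array, and ductus replicate 1 was the highest. Its difference of 0.53 ± 0.144 did not pass (limma adjusted p = 0.0866), though it did without ductus replicate 3 (0.64, limma adjusted p = 0.0403). Under the other alternatives run it did not pass at 0.05, and the mean over probe sets gave 0.26 (limma adjusted p = 0.332). Its other 2 probe sets differed by 0.31 ± 0.148 and -0.061 ± 0.214.

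Cenpa, the histone that marks centromeres, read 8.16, 8.34, 8.37 and 8.35 in the aorta and 8.80, 8.58, 8.54 and 8.49 in the ductus, also without overlap (0.30 ± 0.109, limma adjusted p = 0.205). All 3 Cenpa probe sets had positive differences. Of the others, 1 lay at 2.24 to 3.64, near the first quartile of the arrays, and 1 overlapped and differed by 0.10 ± 0.255. Cdc20, the activator of the anaphase-promoting complex, had 7.03, 7.57, 7.28 and 7.31 in the aorta and 7.87, 7.34, 7.51 and 7.49 in the ductus, overlapping (0.25 ± 0.151, limma adjusted p = 0.473). The remaining 12 mitotic genes, among them the checkpoint genes Bub1, Bub1b and Ttk and the kinases Plk1, Aurka and Aurkb, differed by -0.19 (Bub1b) to 0.32 (Bub1), with limma adjusted p of 0.495 to 0.997.

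**Figure D4:**
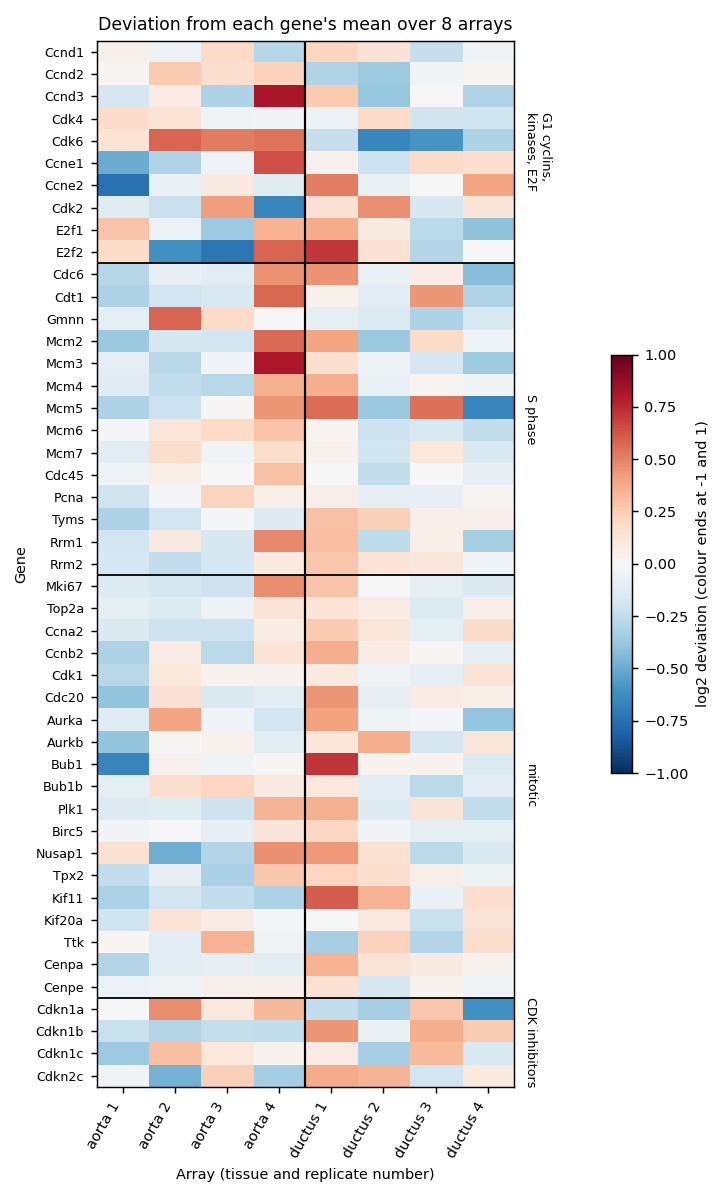
Log2 deviation of each of the 47 members from its own mean over the 8 arrays, by role, with colour ending at -1 and 1. Many S phase and mitotic genes are red on aorta replicate 4 and ductus replicate 1, while Cdk6 is red on aorta arrays and blue on ductus arrays.

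Many members shared a pattern across arrays that did not follow the vessel. Within their tissue, 10 of 14 S phase genes (71.4%) were highest on aorta replicate 4, as were 8 of 19 mitotic genes (42.1%) and 30.9% of all genes. On ductus replicate 1 it was 11 of 14 S phase genes (78.6%), 15 of 19 mitotic genes (78.9%) and 26.7% of all genes. Both held for 8 S phase genes (57.1%), 8 mitotic genes (42.1%) and 11.2% of all genes. The median deviation of S phase genes from their means was 0.33 on aorta replicate 4 and 0.22 on ductus replicate 1, and between -0.18 and 0.062 on the other 6 arrays. Mitotic genes stood at 0.049 and 0.27 on these arrays and between -0.15 and 0.073 on the others. Over all genes the median was 0.042 on aorta replicate 4 and -0.005 on ductus replicate 1, so mitotic genes hardly stood out on aorta replicate 4. No CDK inhibitor was highest on both.

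Markers of thymocytes and of erythroid cells, which can divide rapidly before birth, were highest on the same arrays. All 9 measured thymocyte and T cell markers and all 5 erythroid markers peaked on aorta replicate 4 and on ductus replicate 1 within their tissue. The erythroid marker Hba-a1 lay at 2.26 to 2.74, no higher than the first quartile of the arrays. Its aorta peak of 2.74 hardly exceeded the 2.73 of aorta replicate 1. The thymocyte mean was 6.35 on aorta replicate 4 and 7.11 on ductus replicate 1. It was 3.37 to 4.55 on the other aorta arrays and 3.72 to 5.73 on the other ductus arrays. Cd8a, the co-receptor of cytotoxic T cells and thymocytes, spanned 3.38 to 9.47, and the recombinase Rag1 3.34 to 8.19. The erythroid mean was 7.94 on aorta replicate 4 and 8.05 on ductus replicate 1. It was 6.95 to 7.57 on the other aorta arrays and 7.59 to 7.61 on the other ductus arrays. All 9 thymocyte markers had positive differences, with a median of 1.01 and a median standard error of 0.876. So had 4 of the 5 erythroid markers, and that list had a median of 0.39 and a median standard error of 0.25. limma called 0 markers of either list between the vessels, with 0 at an unadjusted p under 0.05. With errors this wide, the lack of calls does not show equal levels.

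**Figure D5:**
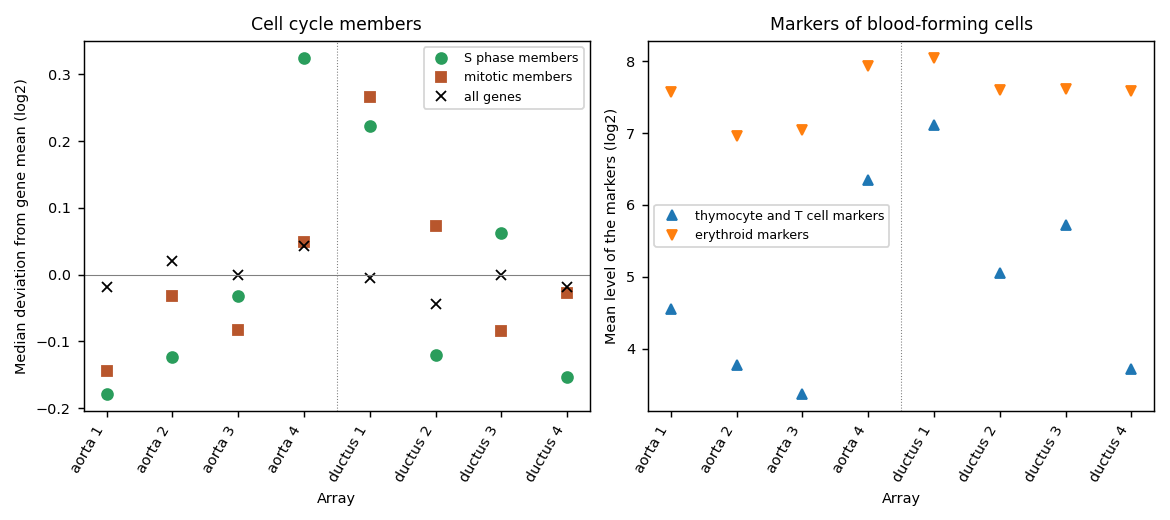
Median log2 deviation of S phase and mitotic members and of all genes on each array (left), and mean log2 level of 9 thymocyte and 5 erythroid markers on each array (right). S phase members, thymocyte markers and erythroid markers are each highest, within their tissue, on aorta replicate 4 and ductus replicate 1.

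With the thymocyte mean as a covariate, Cdk6 stayed the single call (-0.90 ± 0.160, limma adjusted p = 0.0180), and likewise with the erythroid mean (-0.89 ± 0.170, limma adjusted p = 0.0276). Without aorta replicate 4 and ductus replicate 1 together, an alternative added after seeing the data, Cdk6 was again the single call (-0.93, limma adjusted p = 0.0465). S phase genes with a positive difference went from 7 of 14 to 2 of 14 with either covariate, with medians of -0.17 and -0.16, and were 7 of 14 without the 2 arrays. Mitotic genes with a positive difference numbered 12 of 19 with either covariate and 13 of 19 without the 2 arrays. What part these cells have in the level of single members was not tested.

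Other genes of the pathway, from lists chosen with earlier results of these data known, gave few calls as well. Of 20 other G1 control genes limma called 0, against 3.86% of all genes. An unadjusted p under 0.05 was found in 2 (10%, against 16.1% of all genes). Among them Rb1, the retinoblastoma protein that CDK6 phosphorylates, was at 8.70, 8.11, 8.33 and 8.78 in the aorta and 9.28, 8.76, 8.81 and 8.96 in the ductus (0.47 ± 0.179, limma adjusted p = 0.224). Aorta replicate 4 alone overlapped the ductus arrays, by exceeding ductus replicate 2. The E2F repressor E2f6 differed by -0.39 ± 0.156 and the ubiquitin ligase subunit Fbxw7 by 0.26 ± 0.122, neither called.

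Of 38 measured other replication genes limma called 0, with 5 at an unadjusted p under 0.05 (13.2%, against 16.1% of all genes). Dbf4, the activating subunit of the CDC7 kinase that fires origins, was at 7.66, 7.19, 7.71 and 7.21 in the aorta and 8.06, 8.03, 7.88 and 8.08 in the ductus, without overlap (0.57 ± 0.145, limma adjusted p = 0.0665). Rpa3, of the single-strand binding complex, differed by 0.47 ± 0.137 and Timeless, a fork protection factor, by -0.49 ± 0.154, both also without overlap and not called. Positive differences numbered 15 of 38 (39.5%), against 44.0% of all genes.

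Of 42 other mitosis genes limma called 0, with 3 at an unadjusted p under 0.05 (7.14%, against 16.1% of all genes). Smc2, a core condensin subunit, differed by 0.40 ± 0.122 (limma adjusted p = 0.126), Cdca3, a trigger of mitotic entry, by 0.27 ± 0.0910 and Dlgap5, a spindle protein, by 0.36 ± 0.136. The median difference was 0.092. Positive differences were found in 32 of 42 (76.2%, against 44.0% of all genes), a share near that of the mitotic members. It was 26 of 42 with the thymocyte covariate and also without aorta replicate 4 and ductus replicate 1.

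In the list of p53 targets and growth arrest genes, 1 of 18 measured genes was called (5.56%, against 3.86% of all genes). At an unadjusted p under 0.05 limma gave 6 of 18 (33.3%, against 16.1%), 5 positive and 1 negative, and 5 (27.8%, against 11.3%) did not overlap between the vessels. Gadd45g, a stress-induced gene whose product restrains CDK1, was at 8.12, 7.85, 8.28 and 7.85 in the aorta and 9.38, 10.20, 9.42 and 9.41 in the ductus. Every ductus array was higher, and the fold was 2.98 (1.58 ± 0.199, limma adjusted p = 0.00219). Its relative Gadd45a read 8.39, 6.89, 7.53 and 7.86 in the aorta and 8.75, 8.82, 8.43 and 8.86 in the ductus, without overlap, and did not pass (1.05 ± 0.275, limma adjusted p = 0.0754). Ccng1, cyclin G1, a p53 target, differed by 0.44 ± 0.117 (limma adjusted p = 0.0787), also without overlap. Sesn1, a stress-induced p53 target, was lower on every ductus array without passing the test (-0.39 ± 0.116, limma adjusted p = 0.114), and is named after its values were seen. The list's median was 0.053, with Cdkn1a, the best known p53 target and a member above, at -0.45.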

How the data were processed

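Total RNA of 4 ductus and 4 aorta pools was hybridised to Affymetrix mouse arrays. The authors deposited log2 values. Per the submitters' processing notes, the authors used Partek 6.6 and RMA, which corrects background, quantile-normalizes arrays and summarises the probes of a set. Their settings were not found in the labels. RMA shrinks differences near background. The number of arrays limits the precision, and the p-values rest on how far litter pools of a tissue differ.

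Of 45101 probe sets, 34945 carried exactly 1 symbol in the platform annotation. Of these, 34741 were matched by gene ID to the RefSeq gene table of GRCm38.p6. They stood for 18193 genes, 1 probe set each (highest mean). limma 3.58.1 in R 4.3.3 (lmFit, eBayes, two-sided, no covariate, no low-value filter) was tested on simulated data and then run on all genes. Promoter letters were searched in Python 3.11.15 in the RefSeq promoter table. The genes and lists were chosen with earlier results of these data known. Values of every array are given for called genes, for the 4 genes per role with the smallest p, and for a fixed set of main cyclins, kinases, markers and inhibitors. From each pathway list the 3 genes with the smallest p are named. Tissue was taken from the sample titles. Alternatives covered scaling, low-value filters, probe set choice, variance prior, array weights, a replicate block, threshold, test, marker covariates and leaving out arrays.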

Additional observations from a re-analysis of the deposited data

Results flagged for a closer look

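In 5 of 72 groups of 4 arrays checked (25 genes and 11 marker means, each in both tissues), 1 array stood far from the other 3, and chance alone gives about 1 in 20 such groups. Cdk6 was at 7.70 on aorta replicate 1, with the other aorta arrays at 8.08 to 8.14, and without that array its difference was -0.99 (limma adjusted p = 0.00565). Mki67 was at 11.05 on aorta replicate 4, with the others at 10.38 to 10.46. Cenpa was at 8.16 on aorta replicate 1, with the others at 8.34 to 8.37. The erythroid marker mean was 8.05 on ductus replicate 1, with the others at 7.59 to 7.61. The skeletal muscle marker mean was 6.35 on ductus replicate 3, with the others at 3.70 to 4.01. Leaving out this array brought the spindle motor Kif11 past the threshold (limma adjusted p = 0.0403). It also held the lowest ductus value of Kif11 (6.63), so leaving it out widens that difference in any case. The tissue difference was refitted with the erythroid mean as a covariate, as given above, but not with the skeletal muscle mean. The part of either cell type in the members' values was not itself tested.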

How the results depend on the processing

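Cdk6 was negative under each alternative run. Members called higher in the ductus numbered 0, but 1 without the lowest 40% of genes, 1 among genes with a mean above log2 6 and 1 with a trended robust prior (Cdkn1b each time), 2 at an adjusted p under 0.1 (Cdkn1b and Kif11), and 0 to 1 on leaving out 1 array. Members called higher in the aorta numbered 1, but 2 with the probe set whose interquartile range was largest (Cdk6 and Ccnd2), and 1 to 1 on leaving out 1 array. With the replicate number as a block, 0 members were called and Cdk6 (-0.89) missed the threshold (limma adjusted p = 0.0625). Arrays with the same number did not deviate together (correlations over all genes of -0.068, -0.15, -0.19 and -0.23). The titles do not say whether arrays with the same number share a litter. These correlations cannot settle it, since arrays of a tissue also differed widely in markers such as those of thymocytes. Class medians were not computed with the endothelial covariate. Under the other alternatives they moved by less than the SD of single-array class medians within a tissue, 0.123 (mitotic) to 0.202 (S phase). That SD is a wide limit for a difference between groups of 4 arrays. The S phase median went from -0.0053 to -0.17 with the thymocyte covariate. That of the CDK inhibitors went from 0.13 to -0.045 among genes with a mean above log2 6, where 3 were left.

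Signs changed only in genes that were not called, and the cause was not tested. With quantile normalization again Mki67 was -0.0074. With the probe set whose interquartile range was largest Mcm6 was 0.030, Tyms -0.17, Top2a -0.19 and Kif11 -0.061. With the mean over probe sets Ccnd1 was -0.075, Mcm2 -0.049 and Tyms -0.053. With the thymocyte covariate Mcm2 was -0.098 and Mki67 -0.13, and with the erythroid covariate Mcm2 was -0.14, Mki67 -0.19 and Cdkn1c 0.024. Without aorta replicate 4 and ductus replicate 1 together Ccnd1 was -0.11. On leaving out 1 array Ccnd1 ranged from -0.044 to 0.13, Ccnd3 from -0.35 to 0.027, E2f1 from -0.25 to 0.0095, Mcm2 from -0.033 to 0.29, Pcna from -0.10 to 0.039, Mki67 from -0.065 to 0.18, Cdk1 from -0.030 to 0.094 and Cdkn1c from -0.17 to 0.060. The signal over background limits Tyms, whose levels lie near the array medians.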

Other observations

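Members differed widely in how steady they were between arrays of a tissue. The median SD within a tissue was 0.222 over the 47 members and 0.216 over all genes. E2f2, an E2F factor known for its part in blood cell precursors, had the largest (0.533), with aorta values of 9.52, 8.73, 8.61 and 9.92 and ductus values of 10.04, 9.48, 9.04 and 9.34. Mcm5 (0.504) and Ccnd3 (0.408) followed. The kinesin Cenpe, which ties chromosomes to the spindle, had the smallest SD (0.0973). E2f2 was highest on aorta replicate 4 and ductus replicate 1 of its tissue, the arrays that were also highest in the thymocyte and erythroid marker means. The same held for 40.4% of all members and 11.2% of all genes. What part blood-forming cells have in the spread of E2f2 was not tested.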
